A study of Homo sapiens with 12 samples.

Results

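Autophagy and lysosome genes of RKO cells, a human colorectal adenocarcinoma line, were read on 12 oligonucleotide arrays taken from 4 groups of 3 arrays. The genes are 49 listed members: enzymes and activators inside the lysosome, proteins of its membrane, subunits of its proton pump, and the proteins that build the autophagosome. A gene was read only from probe sets whose annotation names that gene alone, and from the one with the highest mean signal over the 12 arrays where several did so. This gave a value for 48 members of the 11963 genes on the array, since the only probe set of GLB1, the lysosomal beta-galactosidase, names further genes. Of the 48, 31 are lysosomal, 16 belong to the autophagy machinery, and 1, TFE3, is a transcription factor.

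The groups were cells given thymoquinone (TQ) at 20 µM together with 5-fluorouracil (5-FU) at 10 µg/mL (76.8 µM), cells given TQ alone at 20 µM, cells given 5-FU alone at 10 µg/mL, and control cells, all for 24 h in the study's methods. TQ is the main active quinone of black cumin seed, and 5-FU is a fluorinated pyrimidine used against colorectal cancer. The labels call the controls untreated, whereas the methods give them the solvent DMSO. All groups are 1 cell line, and the labels do not say whether the arrays of a group came from separate cultures. The paper's statistics section speaks of independent biological replicates, without naming the arrays. The p-values therefore reflect only how far these arrays scatter, and part of that scatter may be technical.

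The lysosome is an acidic compartment in which hydrolases break down proteins, glycans and lipids. The V-ATPase, a proton pump, acidifies it, and membrane proteins such as LAMP1 and LAMP2 line it. In autophagy a kinase complex around ULK1 and RB1CC1 and a lipid kinase complex of PIK3C3 and BECN1 start a double membrane, proteins of the ATG8 family (MAP1LC3B, GABARAPL1, GABARAPL2) are attached to it, cargo receptors such as SQSTM1, OPTN and NBR1 bring in what is to be degraded, and the closed vesicle fuses with a lysosome. TFEB and TFE3 are transcription factors that bind a short element, the CLEAR element, near many of these genes, and its core is the E-box CACGTG.

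Values are log2 signals, and a difference of 1 is a doubling. A gene was called where the adjusted p (limma, Benjamini-Hochberg over 22215 probe sets) was below 0.05. One array of 5-FU and one of TQ+5-FU stood apart from their groups. The lowest correlation between any pair of arrays over all probe sets was 0.867, and it was 0.983 once 5-FU replicate 3 and TQ+5-FU replicate 2 were left out. The mean of the poly-A control transcripts was highest in 5-FU replicate 3 (9.47), stood at 8.94 in TQ+5-FU replicate 2, and lay between 8.50 and 8.97 in control arrays. It was below every control array on 5-FU replicates 1 and 2 (8.22 and 8.36) and TQ+5-FU replicates 1 and 3 (8.24 and 8.42). TQ arrays stood at 8.84, 8.45 and 8.41. The part of this signal in the results was not tested. The difference between the 3′ and 5′ probe sets of GAPDH stayed between 0.05 and 0.13 on all arrays, while that of ACTB was 0.96, 0.89 and 0.67 on TQ+5-FU arrays, 0.57 to 0.67 on TQ arrays and 0.56 to 0.73 on 5-FU arrays, against 0.58 to 0.60 on control arrays; its part in the results was not tested. All comparisons share 1 estimate of the spread, which takes in these 2 arrays, and counts are therefore also given without them. Of the 7 epithelial markers, KRT18 lay between 11.91 and 12.81, EPCAM between 8.37 and 9.61, KRT8 between 6.25 and 7.77 and CDX2 between 6.29 and 7.72, while KRT19, CDH1 and VIL1 averaged 4.06 or less in every group. KRT18 was called higher with 5-FU, and no other epithelial marker and none of the 7 leukocyte and 8 fibroblast markers passed in any comparison with control. On 5-FU replicate 3 the median shift from control arrays was 0.73 for the epithelial, 0.63 for the leukocyte and 0.60 for the fibroblast markers, and its part in the results was not tested. In a bulk sample a change in the number of cells of one kind and a change of RNA per cell cannot be told apart.

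The promoters of 37 members are in the RefSeq tables used here (GRCh38.p14; 250 bases before to 50 after each start). The E-box CACGTG, searched on both strands, was present in 7 of these 37 members (18.9%), against 12% of 9563 genes on the array that have a promoter in the tables. The longer GTCACGTG, which contains it and is part of the CLEAR element, was present in 6 members (16.2%), against 4.7% of array genes. The holders of the E-box were NEU1, CTSA, CTSD, GAA, LAMP1, MCOLN1 and ATP6V0D1, and NEU1 lacked the longer motif. Stretches of 36 bases around one E-box of each are given here, since these 7 genes share the element and differed in their signals; capitals mark the E-box.
NEU1 (chr6:31862927-31862962), minus strand: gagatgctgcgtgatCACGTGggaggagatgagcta
CTSA (chr20:45891278-45891313), plus strand: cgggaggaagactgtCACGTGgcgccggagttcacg
CTSD (chr11:1763954-1763989), minus strand: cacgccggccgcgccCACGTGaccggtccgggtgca
GAA (chr17:80101490-80101525), plus strand: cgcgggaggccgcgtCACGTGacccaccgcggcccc
MCOLN1 (chr19:7522568-7522603), plus strand: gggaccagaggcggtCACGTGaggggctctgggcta
ATP6V0D1 (chr16:67481196-67481231), minus strand: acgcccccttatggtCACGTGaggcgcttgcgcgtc
LAMP1, a glycoprotein of the lysosomal membrane, held 6 E-boxes in its promoter, the first at -192 and the last at -1 relative to the start, and its sequence up to the last of them is given whole (chr13:113296989-113297243, plus strand), again with E-boxes in capitals.
LAMP1: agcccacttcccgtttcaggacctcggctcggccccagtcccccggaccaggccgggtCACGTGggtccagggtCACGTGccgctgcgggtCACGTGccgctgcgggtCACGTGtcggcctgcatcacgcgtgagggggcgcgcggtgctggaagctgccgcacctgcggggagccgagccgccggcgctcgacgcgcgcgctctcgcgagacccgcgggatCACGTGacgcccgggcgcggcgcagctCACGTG
A match of these letters is a description of the sequence only.

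Treatment with 5-FU alone was followed by higher signals of 10 members, and no member was lower past the threshold. The 10 were NEU1, SMPD1 and MAN2B1 among the hydrolases, LAMP2 and NPC2 of the lysosomal membrane and of cholesterol transport, the cargo receptor OPTN, the ATG8 proteins GABARAPL2, GABARAPL1 and MAP1LC3B, and WIPI1, which binds the lipid made by PIK3C3. They are 20.8% of the members, whereas 4.32% of all 11963 genes were called higher with 5-FU and 7.29% in either direction. Since the members were chosen with earlier results of these data known, the counts describe these genes and are not a test of the list. The median difference over the 48 members was 0.20, against 0.09 over all genes. The plot of called members shows all 12 arrays.

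**Figure D1:**
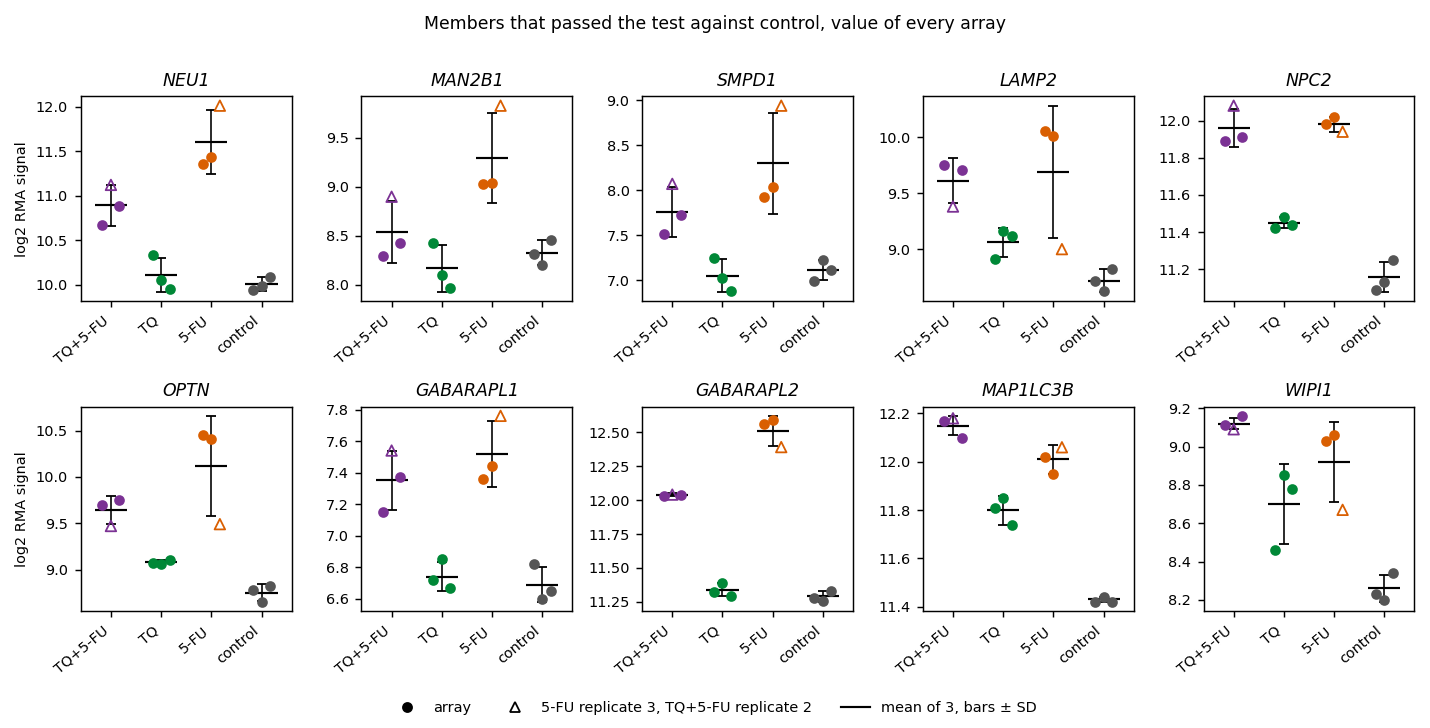
Log2 RMA signal (vertical axis) of the 10 members called against control, in TQ+5-FU, TQ, 5-FU and control arrays (3 points a group, left to right); horizontal lines are means and bars ± SD, and open triangles are 5-FU replicate 3 and TQ+5-FU replicate 2. All 3 values of 5-FU lie above all 3 control values for each of the 10 genes, which is partly built in, since the same values picked them. For GABARAPL2 the TQ values (11.29 to 11.39) lie beside the control values (11.26 to 11.33).

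NEU1, the sialidase that removes sialic acid from glycoproteins and gangliosides, had the largest rise of any member in the fit of all arrays. Without 5-FU replicate 3 and TQ+5-FU replicate 2 it differed by 1.39 and OPTN by 1.68. It measured 11.36, 11.43 and 12.01 in 5-FU arrays, against 9.94, 9.98 and 10.09 in control arrays. The groups did not overlap, and the highest 5-FU value came from replicate 3. The difference was 1.59 ± 0.19 (SE, n = 3 each), a 3.02-fold rise with an adjusted p of 0.00088 (limma). The other 6 holders of the E-box did not pass with 5-FU. Their differences were 0.55 for CTSD, 0.55 for MCOLN1, 0.44 for GAA, 0.40 for ATP6V0D1, -0.02 for LAMP1 and -0.06 for CTSA. Without the 2 arrays they were 0.25 for CTSD, 0.24 for MCOLN1, 0.12 for GAA, 0.19 for ATP6V0D1, -0.14 for LAMP1 and -0.26 for CTSA. LAMP1 stood at 12.35, 12.41 and 12.71 in 5-FU arrays and 12.45, 12.52 and 12.58 in control arrays. These ranges overlapped. CTSA, the protective protein that holds NEU1 in a complex in the lysosome, gave 11.05, 11.18 and 11.72 in 5-FU arrays, against 11.38, 11.36 and 11.41 in control arrays, so that replicates 1 and 2 lay below the controls and replicate 3 above.

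SMPD1, acid sphingomyelinase, measured 7.92, 8.03 and 8.94 in 5-FU arrays, against 6.99, 7.22 and 7.11 in control arrays. MAN2B1, which removes mannose from glycoproteins, gave 9.03, 9.04 and 9.83 in 5-FU arrays, against 8.32, 8.20 and 8.46 in control arrays. In both genes all 5-FU values were above all control values, and replicate 3 stood 0.97 (SMPD1) and 0.80 (MAN2B1) above the mean of the other 5-FU arrays. SMPD1 rose by 1.19 ± 0.25 (adjusted p = 0.018) and MAN2B1 by 0.98 ± 0.24 (adjusted p = 0.036). Leaving out any one control array ended both calls, with the differences then lying between 0.87 and 1.38 for SMPD1 and between 0.71 and 1.11 for MAN2B1 over all single arrays left out; for MAN2B1 leaving out TQ replicate 2 or 3 or TQ+5-FU replicate 3 did so too. Of the 3 further probe sets of SMPD1, 1 passed (1.30, adjusted p = 0.0066) and the others differed by 0.24 and 0.30.

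The remaining hydrolases and activators did not pass with 5-FU. GLA, alpha-galactosidase A, measured 10.30, 10.38 and 9.46 in 5-FU arrays, against 9.47, 9.43 and 9.46 in control arrays. The first 2 arrays were clearly higher and replicate 3 lay within the control range, so that the difference of 0.60 ± 0.20 had an adjusted p of 0.13. The proteases CTSD (0.55), CTSZ (0.50) and CTSB (0.49) and GAA, acid alpha-glucosidase (0.44), had the next differences upward. Replicate 3 was the highest 5-FU array for each of them. Without the 2 arrays that stood apart the differences were 0.25 for CTSD, 0.31 for CTSZ, 0.28 for CTSB and 0.12 for GAA. The lowest were PPT1, which removes palmitate from proteins (-0.82), CTSC, which activates granule proteases (-0.79), and ASAH1, acid ceramidase (-0.37). PPT1 stood at 10.65, 10.66 and 8.51 in 5-FU arrays, against 10.85, 10.73 and 10.71 in control arrays, so replicate 3 carried most of its difference. ASAH1 gave 9.45, 9.21 and 6.34 in 5-FU arrays, against 8.89, 8.72 and 8.50 in control arrays, so that replicates 1 and 2 lay above every control and the sign came from replicate 3. Between these ends lay PSAP, the precursor of the saposins that help degrade sphingolipids (0.39), the glycan-degrading enzymes HEXA (0.20), IDUA (0.20), SGSH (0.18) and GUSB (0.11), the proteases TPP1 (-0.07) and CTSL (-0.15), the sulfatase IDS (-0.20) and the acid lipase LIPA (-0.31). Without the 2 arrays that stood apart the difference was 0.62 for ASAH1, 0.37 for CTSL, 0.36 for LIPA and 0.27 for IDS, each of the opposite sign, and those of SGSH (-0.07), GUSB (-0.06) and HEXA (-0.01) were then below 0. Over all 48 members, 14 changed sign with 5-FU in this way, 10 of them to a positive difference. Over the 21 hydrolases and activators the median was 0.20, with 13 positive and 8 negative differences, of which 3 were called.

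Among the 5 membrane and transport members, 2 were called. NPC2, the soluble carrier that hands cholesterol to NPC1, gave 11.98, 12.02 and 11.94 in 5-FU arrays, against 11.09, 11.13 and 11.25 in control arrays. The groups lay well apart, and the rise was 0.82 ± 0.10 (adjusted p = 0.00079), a call that held with each single array left out. LAMP2, a membrane glycoprotein that also serves chaperone-mediated autophagy, measured 10.05, 10.01 and 9.0 in 5-FU arrays, against 8.72, 8.63 and 8.82 in control arrays. Replicate 3 was close to the controls, and the difference of 0.97 ± 0.25 (adjusted p = 0.045) no longer passed when any one array other than 5-FU replicate 3 was left out, with values from 0.78 to 1.31. The 2 other probe sets of LAMP2 did not pass and pointed in opposite directions, with 0.93 and -1.0. NPC1 (0.35) and MCOLN1, a calcium channel of the lysosome (0.55), did not pass. Without the 2 arrays that stood apart NPC1 differed by 0.53 and MCOLN1 by 0.24.

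None of the 5 V-ATPase members passed with 5-FU. The accessory subunit ATP6AP1 (0.62) and ATP6V0D1 of the membrane sector (0.40) had the largest mean differences, and ATP6V1H of the cytosolic sector stood at 0.05. Without the 2 arrays that stood apart ATP6AP1 differed by 0.31 and ATP6V0D1 by 0.19. ATP6V1C1, also of the cytosolic sector, measured 11.12, 10.92 and 7.27 in 5-FU arrays, against 9.96, 9.71 and 9.50 in control arrays. The first 2 arrays were above and replicate 3 far below every control, which left a mean difference of 0.05 ± 0.84.

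Within the autophagy machinery 3 members of the ATG8 family rose. GABARAPL2 measured 12.56, 12.59 and 12.39 in 5-FU arrays, against 11.28, 11.26 and 11.33 in control arrays. It rose by 1.22 ± 0.09 (2.34-fold, adjusted p = 6.6e-05), the smallest adjusted p of any member in the fit of all arrays. GABARAPL1 rose by 0.83 ± 0.14, with 7.36, 7.44 and 7.76 in 5-FU arrays, against 6.82, 6.60 and 6.65 in control arrays. MAP1LC3B, whose lipid-bound protein is the usual marker of autophagosomes, rose by 0.58 ± 0.09, with 12.02, 11.95 and 12.06 in 5-FU arrays, against 11.42, 11.44 and 11.42 in control arrays. In all 3 genes the groups were apart on every array, also on replicate 3, and the calls held with each single array left out. The second probe set of GABARAPL1 passed as well (1.31), and that of MAP1LC3B did not (0.38, adjusted p = 0.19). ATG5 and ATG12, the partners in the conjugate that attaches ATG8 proteins to lipid, did not pass, with -0.53 and 0.18. ATG5 measured 10.29, 10.03 and 7.40 in 5-FU arrays, against 9.88, 9.79 and 9.64 in control arrays, so the sign came from replicate 3, and without the 2 arrays the difference was 0.39.

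OPTN, a receptor for ubiquitinated cargo and damaged mitochondria, measured 10.45, 10.41 and 9.49 in 5-FU arrays, against 8.78, 8.65 and 8.82 in control arrays. Replicate 3 was the lowest of the treated arrays and still above all controls, and the rise was 1.37 ± 0.22 (adjusted p = 0.0045). Its second probe set differed by 1.15 and did not pass (adjusted p = 0.23). SQSTM1 (p62), the best known receptor, was nearly level, with 10.92, 10.87 and 11.45 in 5-FU arrays, against 10.84, 10.95 and 10.97 in control arrays, and a difference of 0.16. NBR1 gave 9.87, 9.70 and 5.87 in 5-FU arrays, against 9.24, 9.08 and 8.83 in control arrays, and replicate 3 turned a higher level on 2 arrays into a mean difference of -0.57 ± 0.86.

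Of the 8 members for initiation and membrane supply, WIPI1 alone was called with 5-FU. It measured 9.03, 9.06 and 8.67 in 5-FU arrays, against 8.23, 8.20 and 8.34 in control arrays, a rise of 0.66 ± 0.14 (adjusted p = 0.018). The call was lost without any one control array and without 5-FU replicate 1 or 2 (0.59 to 0.78 over all single arrays left out), while its second probe set passed (0.71, adjusted p = 0.0072). The kinase ULK1 did not pass, with 7.56, 7.81 and 8.35 in 5-FU arrays, against 7.15, 7.26 and 7.27 in control arrays, although the groups were apart (0.68 ± 0.20, adjusted p = 0.076). PIK3C3 (-0.81), UVRAG (-0.80), which joins its complex, and the kinase ULK2 (-0.69) had the lowest mean differences. Replicate 3 carried those of PIK3C3 (7.64, 7.42 and 5.03 in 5-FU arrays, against 7.74, 7.40 and 7.38 in control arrays) and ULK2 (6.59, 6.55 and 4.32 in 5-FU arrays, against 6.70, 6.53 and 6.32 in control arrays), and without the 2 arrays they were 0.02 for PIK3C3, 0.06 for ULK2 and -0.31 for UVRAG. BECN1 was at 9.92, 9.85 and 8.09 in 5-FU arrays, against 9.12, 9.19 and 8.97 in control arrays, the first pair above and replicate 3 below. TFE3 differed by 0.45 (adjusted p = 0.19), with 10.89, 11.04 and 11.57 in 5-FU arrays, against 10.69, 10.74 and 10.71 in control arrays.

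With TQ and 5-FU together 6 members rose and none fell. They were NEU1, WIPI1, NPC2, GABARAPL2, MAP1LC3B and GABARAPL1, read against the same control arrays as 5-FU alone. This is 12.5% of the members, against 1.78% of all genes called higher and 2.63% called in either direction. The 3 ATG8 proteins were within the 6, and the median over the 5 members for ATG8 and its conjugation was 0.67, against 0.01 over all genes.

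GABARAPL2 gave 12.03, 12.04 and 12.04 in TQ+5-FU arrays, against 11.28, 11.26 and 11.33 in control arrays, a rise of 0.75 ± 0.09 (adjusted p = 0.0026). MAP1LC3B gave 12.17, 12.18 and 12.10 in TQ+5-FU arrays, against 11.42, 11.44 and 11.42 in control arrays, a rise of 0.72 ± 0.09 (adjusted p = 0.0023). The second probe set of MAP1LC3B differed by 0.39 and did not pass (adjusted p = 0.29). TQ+5-FU replicate 2 lay with the other arrays in both genes. WIPI1 measured 9.11, 9.09 and 9.16 in TQ+5-FU arrays, against 8.23, 8.20 and 8.34 in control arrays, and rose by 0.86 ± 0.14 (adjusted p = 0.0099). NPC2 measured 11.89, 12.08 and 11.91 in TQ+5-FU arrays, against 11.09, 11.13 and 11.25 in control arrays, and rose by 0.81 ± 0.10 (adjusted p = 0.0019).

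The other calls with both drugs were close to the threshold. NEU1 stood at 10.67, 11.12 and 10.88 in TQ+5-FU arrays, above all control values, and its rise of 0.88 ± 0.19 (adjusted p = 0.038) no longer passed in 10 of the 12 fits that left out 1 array, with values from 0.77 to 1.00. GABARAPL1, with 7.15, 7.54 and 7.37 in TQ+5-FU arrays, rose by 0.67 ± 0.14 (adjusted p = 0.035) and did not pass in 9 of those 12 fits (0.58 to 0.77). Its second probe set passed with 1.08 (adjusted p = 0.0027). The WIPI1 call was lost without control replicate 1 or 2 (0.83 to 0.90), and those of GABARAPL2, MAP1LC3B and NPC2 held in all 12. Both LAMP2 (0.89, adjusted p = 0.11) and OPTN (0.89, adjusted p = 0.069) had differences as large as the called genes and did not pass. GLA gave 10.16, 10.17 and 10.16 in TQ+5-FU arrays, against 9.47, 9.43 and 9.46 in control arrays, a separation of 0.71 whose error of 0.20 takes in the spread of all groups (adjusted p = 0.12). ATP6V1C1 (0.66), SMPD1 (0.66) and BECN1 (0.63) came next, NBR1 stood at 0.35, and ATP6V1H (-0.18) had the lowest value of the pump subunits. Without the 2 arrays that stood apart 11 of the 48 members changed sign with both drugs, 4 to a positive and 7 to a negative difference.

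TQ alone gave no called member. In the limma fit 0.267% of all genes were called. At an unadjusted p below 0.05, NPC2 (0.29), MAP1LC3B (0.37) and WIPI1 (0.44) were higher and ATP6V1H (-0.26) lower. Of all 11963 genes, 403 were higher and 754 lower at that threshold. The second probe set of MAP1LC3B differed by 0.07 with TQ, and that of WIPI1 by 0.45. The study's own tests, used without its limit on fold change, passed 4 members (Tukey's HSD across the groups) and 12 members (the methods' t-test, adjusted). The share of all genes passing those tests was not taken, so these counts have no background. The largest mean differences were those of RB1CC1, the scaffold of the ULK1 complex (1.25 ± 0.62), ATP6V1C1 (1.23 ± 0.84) and ASAH1 (0.95 ± 0.66). RB1CC1 measured 8.06, 8.52 and 8.57 in TQ arrays, against 7.53, 7.22 and 6.65 in control arrays. ATP6V1C1 measured 10.77, 10.96 and 11.11 in TQ arrays, against 9.96, 9.71 and 9.50 in control arrays. Neither gene's groups overlapped, and the error shared by the groups takes in the values of 5.45 (RB1CC1) and 7.27 (ATP6V1C1) on 5-FU replicate 3.

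The member classes differed in the sign of their medians with TQ. The 16 members of the autophagy machinery had a median of 0.24, with 13 positive and 3 negative differences, and the 31 lysosomal members a median of -0.08, with 11 positive and 20 negative, against -0.09 over all genes. The positive median was that of the listed members: 29 other genes of the machinery, read from the wider pathway list, had a median of -0.18 with TQ, with 11 positive and 18 negative differences, and 19 other hydrolases and activators one of -0.09. PIK3C3 (0.77), BECN1 (0.67), NBR1 (0.60), ATG5 (0.54), WIPI1 (0.44) and MAP1LC3B (0.37) were at the upper end of the machinery, and OPTN stood at 0.33. ULK1 was its lowest member, with 6.99, 6.90 and 6.71 in TQ arrays, against 7.15, 7.26 and 7.27 in control arrays (-0.36). On the lysosomal side CTSL (0.48), PPT1 (0.42), ATP6V1A, the catalytic subunit of the pump (0.40), GLA (0.38) and LAMP2 (0.34) were higher, and CTSB (-0.34), SGSH (-0.33), GUSB (-0.30), CTSD (-0.25) and HEXA (-0.25) lower, none of them past the threshold. The plot of differences by class shows all members in the 3 comparisons with control.

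**Figure D2:**
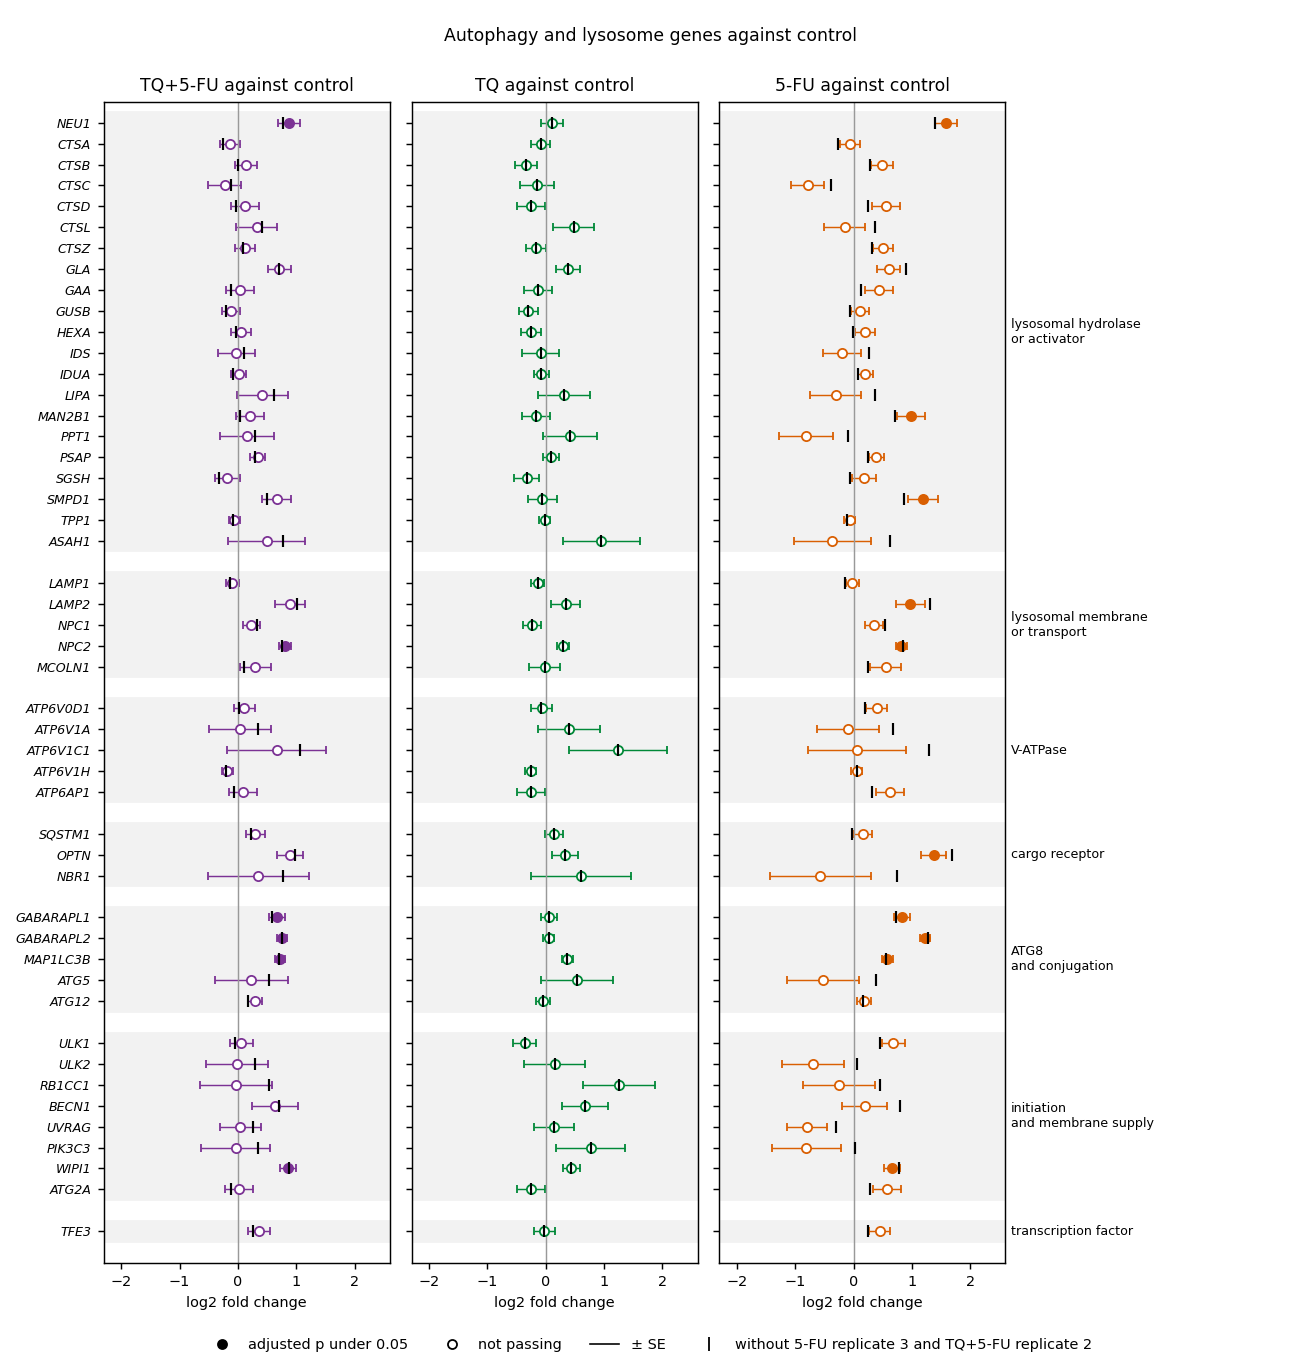
Log2 fold change against control (horizontal axis) of the 48 members, one row each and grouped by class, for TQ+5-FU, TQ and 5-FU (left to right); circles are the fit with all arrays, filled where the adjusted p was under 0.05, bars are ± SE, and black ticks are the same differences without 5-FU replicate 3 and TQ+5-FU replicate 2. Filled circles number 6 for TQ+5-FU, 0 for TQ and 10 for 5-FU, and the ticks of NBR1 (0.74) and ATP6V1C1 (1.30) with 5-FU lie far to the right of their circles.

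Without 5-FU replicate 3 and TQ+5-FU replicate 2, an alternative chosen after the data were seen, many more members passed, as did many more genes. With TQ 17 members were higher and 7 lower, against 15.1% of all genes higher and 17.3% lower. With 5-FU 21 were higher and 2 lower, against 14.9% of all genes higher and 13.4% lower. With both drugs 20 were higher and 1 lower, against 12.7% of all genes higher and 10% lower. The shares of members higher were 35.4% for TQ, 43.8% for 5-FU and 41.7% for both.

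In this smaller set 8 of the 16 machinery members were higher with TQ (RB1CC1, PIK3C3, BECN1, NBR1, ATG5, WIPI1, MAP1LC3B and OPTN) and ULK1 was lower. Of the 31 lysosomal members, 9 were higher with TQ (ATP6V1C1, ASAH1, CTSL, PPT1, ATP6V1A, GLA, LAMP2, LIPA and NPC2) and 6 lower (CTSB, SGSH, GUSB, HEXA, ATP6V1H and NPC1). With 5-FU the 10 called members passed again and were joined upward by ATP6V1C1 (1.30), GLA (0.89), BECN1 (0.79), NBR1 (0.74), ATP6V1A (0.67), ASAH1 (0.62), NPC1 (0.53), ULK1 (0.46), CTSL (0.37), LIPA (0.36) and CTSB (0.28). CTSC (-0.38) and UVRAG (-0.31) were lower. ULK1, CTSB and NPC1 thus passed downward with TQ and upward with 5-FU in this set, where both comparisons share the control arrays. With both drugs SGSH (-0.33), a sulfatase of heparan sulfate, was the member lower.

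TQ arrays set directly against 5-FU arrays gave 12 lower members and none higher, whereas 11.1% of all genes were called in either direction. The 12 were NEU1, SMPD1, GABARAPL2, MAN2B1, OPTN, ULK1, ATP6AP1, CTSB, GABARAPL1, CTSZ, NPC1 and NPC2, that is 8 lysosomal and 4 machinery members. NEU1 measured 10.33, 10.05 and 9.95 in TQ arrays, against 11.36, 11.43 and 12.01 in 5-FU arrays (-1.49 ± 0.19, adjusted p = 0.0013). GABARAPL2 measured 11.32, 11.39 and 11.29 in TQ arrays, against 12.56, 12.59 and 12.39 in 5-FU arrays (-1.18 ± 0.09, adjusted p = 8e-05). ULK1 differed by -1.04 (adjusted p = 0.011), and of the proteases CTSB differed by -0.83 (adjusted p = 0.021) and CTSZ by -0.67 (adjusted p = 0.039). ATP6AP1 differed by -0.86 (adjusted p = 0.046) and NPC1 by -0.58 (adjusted p = 0.038). Further probe sets of SMPD1 (-1.29), GABARAPL1 (-0.91) and CTSB (-0.81) passed as well. Others did not pass, those of OPTN (-0.72), CTSB (-0.62 and -0.44), SMPD1 (-0.47 and -0.41), CTSZ (-0.45) and NPC1 (-0.02, mean signal 3.66). The TQ and 5-FU values of the 12 did not overlap, which is partly built in, since the same values picked them. Members that were not called, such as CTSD, GAA, PPT1 and TFE3, did not overlap either, and the share over all genes was not taken. The calls of NEU1, GABARAPL2, GABARAPL1 and NPC2 held with each single array left out, and each of the others was lost without at least 1 TQ array, with no change of sign; ATP6AP1, CTSZ and NPC1 were also lost without any one control array and without TQ+5-FU replicate 3, CTSZ without 5-FU replicate 2, ATP6AP1 and NPC1 without TQ+5-FU replicate 1, and NPC1 without 5-FU replicate 1 or 2. The largest differences in the other direction, PIK3C3 (1.58) and RB1CC1 (1.50), did not pass.

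Both drugs together set against TQ alone gave 2 higher members, GABARAPL2 and NPC2, where 1.15% of all genes were called. GABARAPL2 differed by 0.70 ± 0.09 (adjusted p = 0.0093), a call lost without TQ replicate 1, TQ replicate 3 or TQ+5-FU replicate 3 (0.68 to 0.73). NPC2, with 11.89, 12.08 and 11.91 in TQ+5-FU arrays, against 11.42, 11.48 and 11.44 in TQ arrays, differed by 0.52 ± 0.10 (adjusted p = 0.038), a call that passed only in the fit without 5-FU replicate 3 among the 12 that left out 1 array (0.46 to 0.55).

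Both drugs set against 5-FU alone gave no called member, with 0.802% of all genes called. At an unadjusted p below 0.05, 7 were lower with both drugs (MAN2B1, NEU1, ULK1, ATG2A, ATP6AP1, GABARAPL2 and ATP6V1H) and UVRAG higher. Of all 11963 genes, 655 were lower and 568 higher at that threshold. The study's tests passed 4 members (Tukey's HSD across the groups) and 0 (the methods' t-test, adjusted), and the share of all genes passing them was not taken. GABARAPL2 came nearest, at 12.03, 12.04 and 12.04 in TQ+5-FU arrays, against 12.56, 12.59 and 12.39 in 5-FU arrays. The groups did not overlap, and the difference was -0.48 ± 0.09 (adjusted p = 0.053). NEU1 was likewise apart, with 10.67, 11.12 and 10.88 in TQ+5-FU arrays, against 11.36, 11.43 and 12.01 in 5-FU arrays, at -0.71 ± 0.19 (adjusted p = 0.16).

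The interaction, the difference with both drugs minus the difference with TQ minus that with 5-FU, passed for no member, and for 0.167% of all genes. NEU1 (-0.82), OPTN (-0.80), GABARAPL2 (-0.52) and NPC2 (-0.31) had an unadjusted p below 0.05, all of them with the combined difference smaller than the sum. Of all 11963 genes, 539 had a positive and 215 a negative interaction at that threshold. Without the 2 arrays 9 members passed, all negative, against 11.1% of all genes in either direction, that is ATP6V1C1 (-1.45), OPTN (-1.03), ASAH1 (-0.81), BECN1 (-0.76), NEU1 (-0.73), ATP6V1A (-0.72), LAMP2 (-0.64), GABARAPL2 (-0.58) and GLA (-0.56). Across the 4 groups, 10 members passed the moderated F test, against 8.19% of all genes.

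Class medians were also taken on single arrays. As differences from the mean of control arrays, the median of the machinery lay between 0.30 and 0.64 on TQ+5-FU arrays, between 0.22 and 0.37 on TQ arrays and between 0.31 and 0.55 on 5-FU arrays. The median of the lysosomal members lay between -0.03 and 0.19 on TQ+5-FU arrays, between -0.14 and 0.03 on TQ arrays and between 0.23 and 0.43 on 5-FU arrays. Over all genes it lay between -0.05 and 0.12 on TQ+5-FU arrays and between -0.12 and -0.04 on TQ arrays. On 5-FU arrays it lay between -0.01 and 0.37, and on replicate 3 the lysosomal 0.43 stood close to the 0.37 of all genes. The machinery, at 0.31 on that array, was below all genes. Lysosomal minus machinery was negative on all 3 TQ+5-FU arrays (-0.67, -0.20 and -0.11), on all 3 TQ arrays (-0.19, -0.45 and -0.37) and on 5-FU replicates 1 and 2 (-0.32 and -0.11), against 0.12 on 5-FU replicate 3 and -0.04, -0.02 and 0.06 on control arrays. The control arrays help set the zero of this scale, so their closeness to it is partly built in. The median of the 29 other machinery genes of the wider list was 0.06 to 0.19 on TQ+5-FU arrays, -0.18 to -0.09 on TQ arrays and 0.06 to 0.20 on 5-FU arrays, while that of the 19 other hydrolases and activators was 0.10 to 0.39 on TQ+5-FU arrays, -0.13 to -0.08 on TQ arrays and 0.31 to 0.85 on 5-FU arrays. The 5 members for ATG8 and conjugation had medians of 0.68 to 0.75 on TQ+5-FU arrays, 0.01 to 0.16 on TQ arrays and 0.52 to 0.64 on 5-FU arrays.

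**Figure D3:**
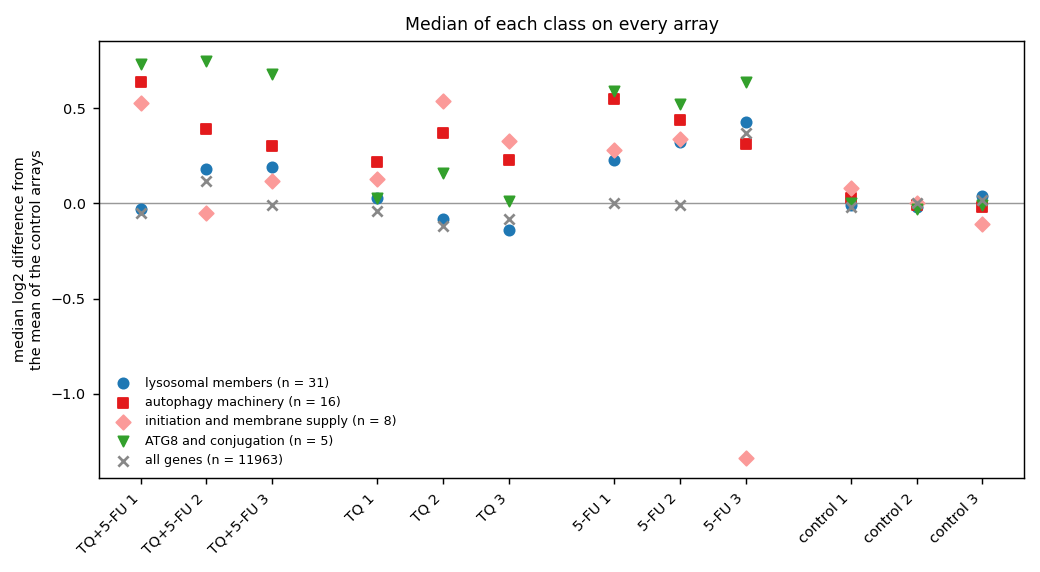
Median log2 difference from the mean of the control arrays (vertical axis) of each class on each of the 12 arrays, TQ+5-FU, TQ, 5-FU and control from left to right; marker shapes are the classes, and crosses are all 11963 genes. The ATG8 class stays between 0.52 and 0.75 on all arrays with 5-FU, alone or with TQ, while the initiation class stands at -1.34 on 5-FU replicate 3 alone.

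The 2 arrays that stood apart did so in opposite directions for different members. On 5-FU replicate 3, set against the mean of the other 5-FU arrays, 26 members were higher and 22 lower, 16 of them by more than 1. Of all 11963 genes, 8069 were higher and 3890 lower, 2265 of them by more than 1. The lowest were NBR1 (-3.92), ATP6V1C1 (-3.75), ASAH1 (-2.99), ATG5 (-2.75) and PIK3C3 (-2.50), and the highest SMPD1 (0.97) and GAA (0.96). The median was 0.35 for lysosomal members, -0.65 for the machinery and 0.44 for all genes, and it was lowest for the initiation class (-1.63), in which ULK1 (0.66) and ATG2A, a lipid transfer protein (0.89), were the 2 that were higher. GABARAPL2 (-0.18), NPC2 (-0.06) and MAP1LC3B (0.08) hardly moved.

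TQ+5-FU replicate 2 showed the same order at a smaller size, from -1.68 for RB1CC1 to 0.59 for MCOLN1. Over the 48 members its differences correlated with those of 5-FU replicate 3 (Pearson's r = 0.939, and 0.895 over all genes), a description over genes that share 2 libraries. The differences of 5-FU replicate 3 ran against the TQ differences from control (r = -0.804, and -0.702 over all genes). Genes that were higher with TQ were thus mostly those low on the 2 arrays, among them RB1CC1, ATP6V1C1, ASAH1 and PIK3C3. Set against the differences of 5-FU replicates 1 and 2 from control, the same differences gave r = -0.199 (-0.262 over all genes). Replicates 1 and 2 enter both sides with opposite signs, which pushes this r downward, so nothing is read from it. The order on 5-FU replicate 3 was also present within groups. Against the difference of control replicate 3 from control replicate 1, r was 0.778 (0.688 over all genes). Against that of TQ replicate 3 from TQ replicate 1 it was -0.832 (-0.596 over all genes). The poly-A signal was higher in control replicate 3 (8.97) than in control replicate 1 (8.69) and lower in TQ replicate 3 (8.41) than in TQ replicate 1 (8.84). Its part in these orders was not tested.

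**Figure D4:**
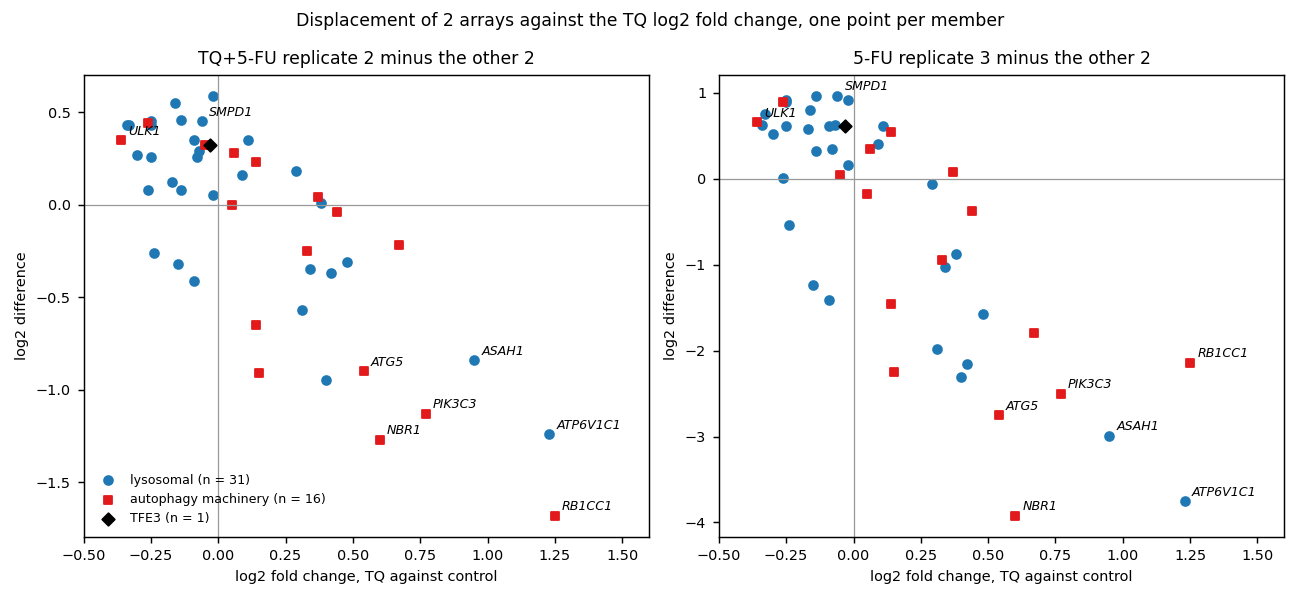
Log2 difference of TQ+5-FU replicate 2 (left) and 5-FU replicate 3 (right) from the mean of the other arrays of their group (vertical axes), against the log2 fold change of TQ against control (horizontal axes), one point a member, coloured by lysosomal genes, autophagy machinery and TFE3. In both panels points run downward to the right, from SMPD1 and ULK1 at the upper left to ATP6V1C1, ASAH1 and RB1CC1 at the lower right (r = -0.802 and -0.804 over 48 members).

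Other genes of these pathways were read from a list of 120, of which 97 had a probe set of their own. With 5-FU 8 of them rose and 2 fell (10.3%, against 7.29% of all genes), with both drugs 1 rose (1.03%, against 2.63% of all genes), and with TQ 1 fell (1.03%, against 0.267% of all genes). LAMP3, a relative of LAMP1 and LAMP2 that is induced in several stress states, measured 7.50, 7.21 and 7.39 in TQ+5-FU arrays, 6.13, 6.37 and 6.44 in TQ arrays and 7.75, 7.71 and 7.87 in 5-FU arrays, against 6.24, 6.17 and 6.25 in control arrays. It rose by 1.56 ± 0.12 with 5-FU (adjusted p = 6.7e-05) and by 1.15 ± 0.12 with both drugs (adjusted p = 0.00083), and TQ arrays overlapped the controls. DRAM1, a lysosomal membrane protein induced by p53, rose by 1.27 with 5-FU (adjusted p = 0.029), with 10.02, 10.02 and 8.75 in 5-FU arrays, against 8.22, 8.33 and 8.42 in control arrays; the call was lost without any one control array, 5-FU replicate 1 or 2 or TQ replicate 2 or 3 (1.06 to 1.69). VAMP8, a fusion protein of autophagosomes and lysosomes, rose by 1.13 with 5-FU (adjusted p = 0.0042), with 9.45, 9.68 and 10.08 in 5-FU arrays, against 8.52, 8.50 and 8.80 in control arrays. All 5-FU values of both genes were above all control values. The other rises with 5-FU were those of SESN1, FUCA1, SNAP29, LGMN and HGSNAT.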

How the data were processed

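RNA of RKO cells was measured on Affymetrix GeneChip human genome arrays, 3 in each of 4 groups, and the labels gave the groups. The values deposited by the authors are log2 signals after RMA, 1 for each probe set on each array. The paper names GeneSpring and the submitters' processing notes Affymetrix Expression Console for this step, and the values do not show which was used. The deposited log2 values were used with no further scaling.

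Of 22277 probe sets, 62 controls were left out and 22215 tested; 19064 name 1 gene, 1043 several and 2108 none, which left 11963 genes, each read from its brightest probe set. Groups were compared in R 4.3.3 by limma (version 3.58.1) in 1 fit of all 12 arrays with a mean for each group, empirical Bayes moderation and two-sided tests, adjusted by Benjamini-Hochberg over all tested probe sets, with a threshold of 0.05. The 7 contrasts were fitted. The script was tested on simulated data. The methods' tests were ANOVA with Tukey's HSD and Student's t-test. An exact test of 3 arrays against 3 cannot go below 0.1, and the number of arrays limits the precision.

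The members, the 120 further pathway genes and the marker lists were chosen with earlier results of these data known. The members named are those called in any contrast, the 2 of each class with the largest difference in each comparison with control, and NEU1, LAMP1, CTSD, SQSTM1, MAP1LC3B, BECN1, ULK1 and TFE3; others were named after their values were seen. Pathway genes named are at most 4 per comparison by size of difference, with TFEB, MTOR and DDIT4; the further called ones were named afterwards. Promoter sequences are from RefSeq (GRCh38.p14), and plots were made in matplotlib 3.10.9 under Python 3.11.15.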

Additional observations from a re-analysis of the deposited data

How the results depend on the processing

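Counts of called members changed with the spread that was used, and the cause was not tested beyond the settings named. Shares of all genes were taken only for the main fit and for the fit without the 2 arrays. Under every other setting, single arrays left out included, the counts have no background and do not set the members apart from all genes. With array weights, which weigh 5-FU replicate 3 at 0.0247 and TQ+5-FU replicate 2 at 0.15, 28 members were called for TQ, 34 for 5-FU, 32 for both drugs, 17 for both against 5-FU, 30 for both against TQ, 35 for TQ against 5-FU, 20 for the interaction and 46 across the groups. Without the 2 arrays together these counts were 24, 23, 21, 6, 12, 22, 9 and 34. Across the groups, 5367 of all 11963 genes passed in that fit. With limma on the 2 groups compared, which drops the spread of the other groups, 24 were called for TQ, 2 for 5-FU, 10 for both, 1 for both against TQ and 1 for TQ against 5-FU. The methods' ANOVA with Tukey's HSD gave 4 for TQ, 4 for both against 5-FU, 6 for both against TQ and 7 for TQ against 5-FU, and the methods' t-test 12 for TQ, 3 for 5-FU, 1 for both against TQ and 2 for TQ against 5-FU. Quantile normalization, the trended robust prior and leaving out the dimmest 30% of probe sets each gave 1 call for both against 5-FU, and centring on the median gave 1 for both against TQ. Of 18 same-numbered pairs of arrays, 6 had r above 0.1 (range -0.84 to 0.86) in their deviations from the group means. Those means take in the 2 arrays that stood apart, which carry different numbers, so these r cannot show whether the arrays were paired. With a replicate block 1 member was called for both against TQ and 6 across the groups, and for the other comparisons the counts stayed within 1.5 times.

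Leaving out 1 array at a time gave 0 to 8 calls for TQ, 6 to 14 for 5-FU, 3 to 12 for both, 0 to 2 for both against 5-FU, 0 to 13 for both against TQ, 4 to 20 for TQ against 5-FU, 0 to 5 for the interaction and 5 to 19 across the groups. The highest of these came without 5-FU replicate 3, except 20, which came without 5-FU replicate 1. The lowest for 5-FU (6) came without any one control array, those for both drugs (3) without control replicate 1 or 2, those for both against TQ (0) without TQ replicate 1 or 3 or TQ+5-FU replicate 3, that across the groups (5) without control replicate 2, and those for TQ against 5-FU (7, 5 and 4) without TQ replicate 1, 2 or 3. Of 1008 alternative values of 42 called changes in single genes, 767 kept direction and passed, 239 kept direction without passing and 2 reversed: with the probe set of largest variance, LAMP2 gave -1.0 and MTOR 0.00 with 5-FU. The share of members with an E-box did not change when only the 150 bases before the start were searched.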

Other observations

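Genes that control the lysosome and autophagy through nutrient signals and transcription were read from 24 further genes. With TQ, DDIT4, which restrains the kinase mTOR, was the 1 gene called. It measured 9.23, 8.84 and 8.74 in TQ arrays, against 10.64, 10.67 and 10.69 in control arrays, and fell by 1.73 on the log2 scale (SE 0.24, adjusted p = 0.027). The groups were far apart on every array, and the call was nonetheless lost in 7 of the 12 fits that left out 1 array (-1.88 to -1.63). With 5-FU, DDIT4 stood between 9.54 and 10.48, below all control values, and did not pass (-0.79, adjusted p = 0.092).

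SESN1, a sestrin induced by p53 that dampens mTOR complex activity, measured 10.42, 10.29 and 8.26 in 5-FU arrays, against 7.71, 7.61 and 7.59 in control arrays. It rose by 2.02 ± 0.48 (adjusted p = 0.03), replicate 3 lying nearest the controls, and the call was lost in 9 of the 12 fits that left out 1 array (1.63 to 2.72). With both drugs SESN1 differed by 2.01 and did not pass (adjusted p = 0.057), with 9.98, 9.13 and 9.84. MTOR itself fell by 0.54 with 5-FU (adjusted p = 0.027), with 6.43, 6.52 and 6.26 in 5-FU arrays, against 6.94 on each of the 3 control arrays, a call lost without any one control array, 5-FU replicate 1 or TQ+5-FU replicate 3 (-0.59 to -0.46). TFEB did not pass in any comparison with control: its 5-FU values were 6.92, 7.01 and 8.02, against 6.60, 6.70 and 6.84 in control arrays, and the difference was 0.60 ± 0.27 (adjusted p = 0.27).

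Of the other called pathway genes, FUCA1, which removes fucose from glycoproteins, rose by 1.09 with 5-FU, SNAP29, a fusion protein of the autophagosome, by 0.86, the protease LGMN by 0.75 and HGSNAT, an acetyltransferase for heparan sulfate, by 0.53. The call of SNAP29 was lost without control replicate 1 or 2 (0.67 to 0.97) and that of HGSNAT without control replicate 1 or 3 (0.48 to 0.57). ATP6V0A2, a subunit of the membrane sector of the pump, fell by 0.94, with 6.26, 6.12 and 6.05 in 5-FU arrays, against 7.03, 7.07 and 7.12 in control arrays. The mean over all probe sets of ATP6V0A2 gave -0.30 and did not pass.

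IDS, a sulfatase of lysosomal glycans, was measured by 9 probe sets that disagreed. The brightest differed by -0.20 with 5-FU, while 2 of the other 8 passed with 0.71 each.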
